A study of Mus musculus with 4 samples.

Results

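The replication-dependent histone genes were examined in myeloid-derived suppressor cells (MDSCs) cultured with or without EGCG. They were taken as the protein-coding genes of the count table whose names begin with Hist1h, Hist2h, Hist3h or Hist4h. This rule chose 67 of the 53465 genes listed, of which 6 encode the linker histone H1, 18 H2A, 18 H2B, 12 H3 and 13 H4. On the mouse genome (GRCm38), 54 lie in the Hist1 cluster on chromosome 13, 10 in the Hist2 cluster on chromosome 3, 2 in the Hist3 cluster on chromosome 11, and Hist4h4 is alone on chromosome 6. A further 3 genes had matching names but were annotated as pseudogenes and were left out.

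MDSCs, myeloid cells held short of maturity, build up in hosts with a tumor and restrain T cells. The cells were sorted with beads against Gr-1 from spleens of BALB/c mice carrying 4T1 tumors, a transplanted mammary carcinoma, and the labels place the sacrifice on day 21 after injection, whereas the methods of the study give a shorter interval for the sort. All cells were cultured for 6 h. The control group (2 libraries) received control medium, and the EGCG treatment group (2 libraries) received 5 µg/mL EGCG, a catechin abundant in green tea. Whether the 2 libraries of each group represent separate mice or cultures is not given in the sources used here, so p-values measure only the spread between these samples, which may be technical.

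Replication-dependent histone genes supply the histones that package newly copied DNA, and most of their mRNA is made during S phase. Unlike other mRNAs, the typical transcript has no introns and no poly(A) tail: it ends a few bases after a short stem loop that is bound by the stem-loop binding protein and cut with the help of the U7 small nuclear ribonucleoprotein. Some of these genes also carry a poly(A) signal further downstream, and their polyadenylated transcripts are known from cells that have stopped dividing.

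The stem loop is shown because it defines how these transcripts end. Within the GENCODE M21 transcript models, it was found after the stop codon in 44 of the 67 genes, starting 21 to 58 bases after the stop (median 31). The form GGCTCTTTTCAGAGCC was present in 26 genes, and 5 other forms shared the remainder. The following pieces are 30 bases long, on the transcript strand and on GRCm38, with the stem loop in capitals.
Hist1h1c (stem loop at chr13:23739512-23739527): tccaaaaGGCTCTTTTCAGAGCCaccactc
Hist1h4i (stem loop at chr13:22040966-22040981): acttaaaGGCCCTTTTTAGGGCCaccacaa
Hist1h2be (stem loop at chr13:23585531-23585546): aaccaaaGGCTCTTTTCAGAGCCacccaac
Hist1h2bb (stem loop at chr13:23747203-23747218): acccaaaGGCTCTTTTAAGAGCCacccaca
Hist1h4h (stem loop at chr13:23531458-23531473): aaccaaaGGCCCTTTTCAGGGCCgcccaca
Of the other 23 members, 15 had models with fewer than 16 bases after the stop codon, too few to hold it. Of 21901 protein-coding genes with a transcript, 68 held such a stem loop anywhere in a transcript, and 24 of these were outside the 67 genes, among them H2afx, which encodes the variant histone H2A.X.

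The genes share promoter motifs in part, with differences between the classes. RefSeq promoter windows (GRCm38.p6, 250 bases before to 50 after the start) were found for 61 of the 67 genes. The CCAAT motif, read on both strands, was in 85.2% of them and in 37.9% of all 27025 windows, and TATAAA was in 55.7% and 14.2%. CCAAT was in every H1, H2A, H2B and H3 window and in 25.0% of the 12 H4 windows. The octamer ATTTGCAT was in 38.9% of the H2A windows and in 37.5% of the H2B windows, against 1.75% of all windows, and was not in the H1, H3 and H4 windows. These matches describe the letters only. Windows of H2A and H2B genes that start close together on opposite strands can overlap, so the same site can be counted for both genes. The octamer of Hist1h2ae and that of Hist1h2bg, for example, are the same bases. Windows of the genes on which the results turn are given below 5′ to 3′ on the gene's strand with every match of these 3 motifs, on either strand, in capitals; in these windows no match overlapped another. The Hist1h2ac window also spans the 250 bases between this gene and Hist1h2bc, whose own window was not matched.
Hist1h1c (chr13:23738557-23738856, + strand): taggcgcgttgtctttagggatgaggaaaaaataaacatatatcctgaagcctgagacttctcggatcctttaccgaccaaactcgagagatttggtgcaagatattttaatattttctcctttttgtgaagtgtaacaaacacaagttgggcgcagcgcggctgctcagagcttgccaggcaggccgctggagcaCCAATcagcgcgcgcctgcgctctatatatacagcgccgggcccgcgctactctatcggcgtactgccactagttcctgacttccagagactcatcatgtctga
Hist1h4i (chr13:22041313-22041612, - strand): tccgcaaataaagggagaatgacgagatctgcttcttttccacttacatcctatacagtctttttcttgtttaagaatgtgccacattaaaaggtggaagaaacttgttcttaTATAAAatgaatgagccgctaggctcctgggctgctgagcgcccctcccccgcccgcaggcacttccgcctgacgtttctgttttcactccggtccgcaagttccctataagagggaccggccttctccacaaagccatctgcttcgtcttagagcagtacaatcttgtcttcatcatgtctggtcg
Hist1h2ac (chr13:23683910-23684209, - strand): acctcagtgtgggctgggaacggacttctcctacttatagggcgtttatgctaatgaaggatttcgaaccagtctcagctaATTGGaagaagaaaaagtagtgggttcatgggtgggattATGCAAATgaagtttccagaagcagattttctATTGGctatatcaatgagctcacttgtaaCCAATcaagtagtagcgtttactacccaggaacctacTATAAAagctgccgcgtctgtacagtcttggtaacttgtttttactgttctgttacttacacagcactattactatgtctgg

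Few reads came from these genes. The libraries held 17767318 to 18390385 counted reads, and the 67 genes together took 4110 and 5213 counts in the control group and 5215 and 6374 in the EGCG treatment group, or 0.0231%, 0.0290%, 0.0284% and 0.0352% of all counts. Between 49 and 56 of the 67 genes had a read in a library. Levels are given as CPM (counts per 1000000 counts of the TMM-scaled library). Levels of different genes are compared per kilobase (kb) of exon where this is stated. Shares of the summed CPM, sums over classes and lists, cutoffs in CPM and raw counts are not divided by length. Comparisons of different genes by these values therefore also reflect gene length. How RNA was selected for the libraries is not given in the sources used here. Rmrp, Rpph1, Rny1, Rny3, Rnu11 and Rnu12, which are small RNAs without a poly(A) tail, had 0 counts in all 4 libraries, Terc had at most 2, and Rn7sk, also without a tail, had 802 to 1166. The part of RNA selection in the levels was not tested.

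Among the 67 genes, a handful held nearly all of the signal. Hist1h1c, a linker histone gene at chr13:23738808-23740367, alone gave 66.9% of the summed CPM, and it formed 64.3% to 68.8% of the histone counts in each library. The 4 genes with the most counts (Hist1h1c, Hist1h2bc, Hist1h4i and Hist1h2be) made up 90.5%. Per kb of exon, Hist1h1c was at 124.5 CPM, Hist1h4i at 34.6 and Hist1h2bc at 25.2, and the other 64 genes were each under 5 CPM per kb. The median of the 67 genes was 0.363 CPM per kb, and 55 of them were at 1 CPM or less. A total of 16 genes had 3 counts or fewer in every library and 13 had 10 or more in every library.

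A count of 0 in all libraries was found for 8 genes: Hist1h2aa, Hist1h4b, Hist2h2aa1, Hist2h2aa2, Hist2h2ab, Hist2h2bb, Hist2h3b and Hist2h3c1. At this depth a count of 0 allows a level of up to 0.164 to 0.168 CPM (3 counts, for counting error only). In 5 of these 8 genes every 31-base word of the transcript also occurred in another gene's transcripts, so that reads from them may not have been assigned to them. The counting did not use strand, and 3 genes annotated as antisense RNAs in the Hist2 cluster had reads: Gm20632 had 41 to 59 counts, Gm20633 27 to 40 and Gm20628 4 to 12 in the 4 libraries. Of the genes known from the testis, Hist1h1t had 1 count in EGCG replicate 1 and Hist1h2ba 1 count in EGCG replicate 2, and both were at 0 elsewhere.

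**Figure D1:**
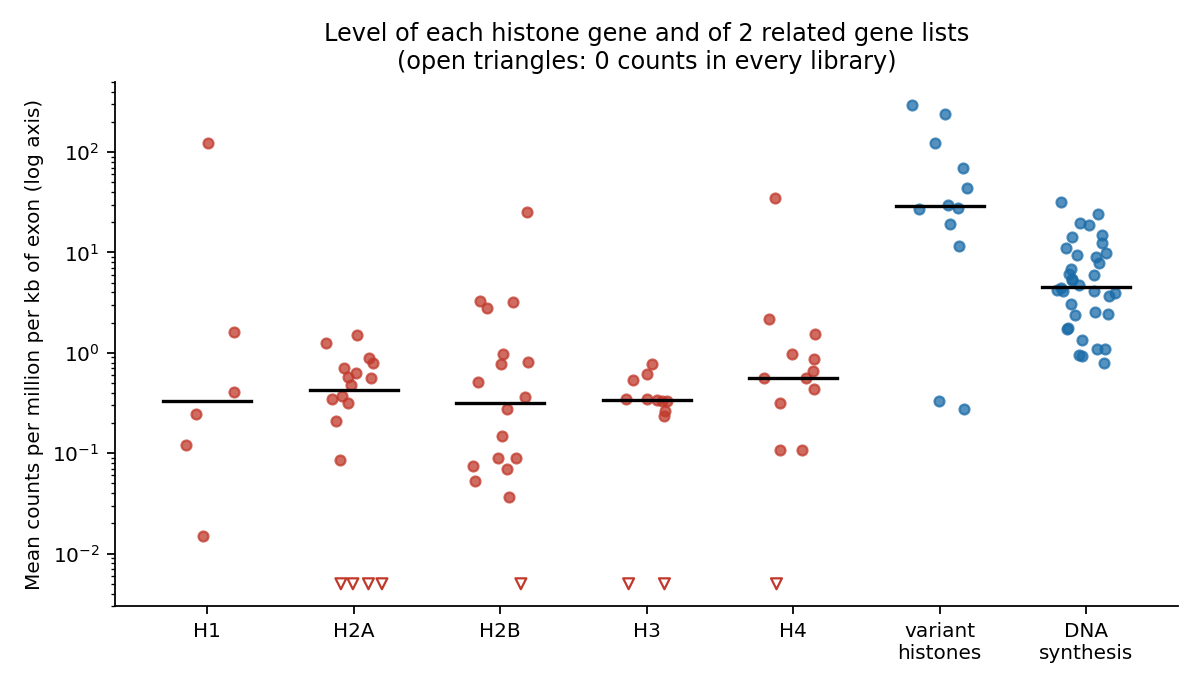
Mean CPM per kb of exon over the 4 libraries (log axis) for each histone gene by class (red) and for the lists of replication-independent variant histones and DNA synthesis genes (blue). Each point is a gene, bars are medians, and open triangles mark the 8 genes without a count. Hist1h1c, Hist1h4i and Hist1h2bc stand above the other histone genes.

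The levels were set beside those of genes that act in S phase. The list of 36 DNA synthesis genes (origin licensing, deoxynucleotide supply, polymerases and their clamp, with Top2a and the cycling marker Mki67) had a median of 4.55 CPM per kb, with a range from 0.800 to 31.8. Only 3 of the 67 histone genes were at or above that median, and 51 were below the lowest gene of the list. In 42 of the 67 histone genes, 50% or more of the 31-base words also occur in other genes (median 33.5% in the 19 genes tested below and 70.9% in the other 48), and the part of reads that fit several genes in these levels was not tested. Pcna, the sliding clamp of DNA polymerase, was at 75.6 and 71.5 CPM in the control libraries, against 78.8 and 79.0 in the EGCG libraries (31.8 CPM per kb). Hist1h4i alone was at 34.6 CPM per kb, near Pcna. The histone H4 class summed to 24.1 and 29.7 CPM in the control group and 33.1 and 33.4 CPM in the EGCG treatment group, of which 83.5% came from Hist1h4i.

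Transcript models that run far past the stem loop were common among the genes with the most counts. Of 18 genes with a stem loop and a model reaching 330 to 4884 bases beyond it, 11 had enough counts to be tested, including Hist1h1c (840 bases beyond), Hist1h4i (330), Hist1h2be (1861) and Hist1h1e (1153). Of 26 genes whose models ended 3 to 185 bases after the stem loop, 6 were tested. Hist1h2bc, spliced over chr13:23684199-23692908, had no stem loop in its model and 742 bases after the stop codon. None of the 19 genes that had neither a stem loop nor 300 bases after the stop was tested. Longer models collect more reads, and per kb the picture was different: the median was 0.483 CPM per kb in the group of 18 and 0.539 in the group of 26. Over the 44 genes with a stem loop, the distance from the stem loop to the model's end and the level had a Spearman rho of 0.33 for CPM and -0.05 per kb, as a description over genes that share the same 4 libraries. AATAAA, the poly(A) signal, was in the last 40 bases of any protein-coding transcript for 14 of the 67 genes (20.9%), Hist1h1c among them. Over 58791 protein-coding transcripts, counted singly and not per gene, the share was 39.3%, so the shares are not on the same basis.

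The comparison of EGCG with control asked whether the treatment altered the mRNA level of these genes. No histone gene passed the threshold of 0.05 for the adjusted p. Only 19 of the 67 genes had enough counts to be tested, and their adjusted p (edgeR quasi-likelihood test, Benjamini-Hochberg over 14682 genes) ran from 0.230 to 0.959. Over all tested genes, 22 or 0.15% passed. At an unadjusted p under 0.05, 4 of the 19 genes were higher with EGCG (Hist1h1c, Hist1h2bc, Hist1h4i and Hist1h2be; 5.22% of all tested genes), and 0 were lower (7.02% of all tested genes). DESeq2 gave an adjusted p to only 4 of the 19, the same genes, and called 0 of these 4, with Hist1h2bc alone at an unadjusted p under 0.05. The other 15 received no adjusted p and could not be called by it. The 67 genes came from a bulk population, in which a change in the number of cells that make histone mRNA and a change in the amount per cell cannot be told apart.

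The estimates of the tested genes lay mostly above 0. A higher estimate with EGCG was obtained for 17 of the 19 genes, and a share of 50.6% of all tested genes had one. Both EGCG libraries were above both control libraries for 12 of the 19 (21.5% of all tested genes), both were below for Hist2h4 alone (21.2% of all tested genes), and in the other 6 genes the groups overlapped. On the log2 scale the 19 genes had a median fold change of 0.40, beside 0.0031 over all tested genes. The median of the tested histone genes was 0.27 without EGCG replicate 2 and 0.51 without control replicate 2. These counts describe genes that passed a filter on low counts. Of the 19, 12 were past the filter's cutoff of 0.554 CPM in all 4 libraries. Hist1h1d, Hist1h2ae, Hist1h2ao, Hist1h4n and Hist2h3c2 passed it in both EGCG libraries but not in both control libraries, so their selection itself favored a higher estimate, and Hist1h4c and Hist2h4 passed it in all libraries except EGCG replicate 1. Over the 12 tested genes with a mean above 1 CPM, a split made after the values had been seen, the median was 0.32 and 11 estimates were above 0. These are not the 12 genes past the cutoff in all libraries, since they include Hist1h2ae and leave out Hist1h3d. The split thus does not remove the selection by the filter.

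Without any filter, the mean CPM was higher with EGCG in 44 of the 59 histone genes that had a count and lower in 15, beside 52.9% of all 27490 genes with a count. The 48 genes under the filter summed to 121 and 133 counts in the control group, below the 170 and 171 counts of the EGCG treatment group.

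Fold changes were also related to gene length in these libraries. Across 14666 tested genes, the fold change and the exonic length had a Spearman rho of -0.29. On the log2 scale the median was 0.11 for the 1665 genes with up to 1000 bases of exon, 0.07 for the 1882 genes from 1000 to 2000, 0.04 for the 4117 genes from 2000 to 4000 and -0.05 for the 7002 longer genes. The tested histone genes had a median of 1156 bases and all tested genes 3814.5. With length entered as a correction, the median of the 19 genes was 0.35.

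**Figure D2:**
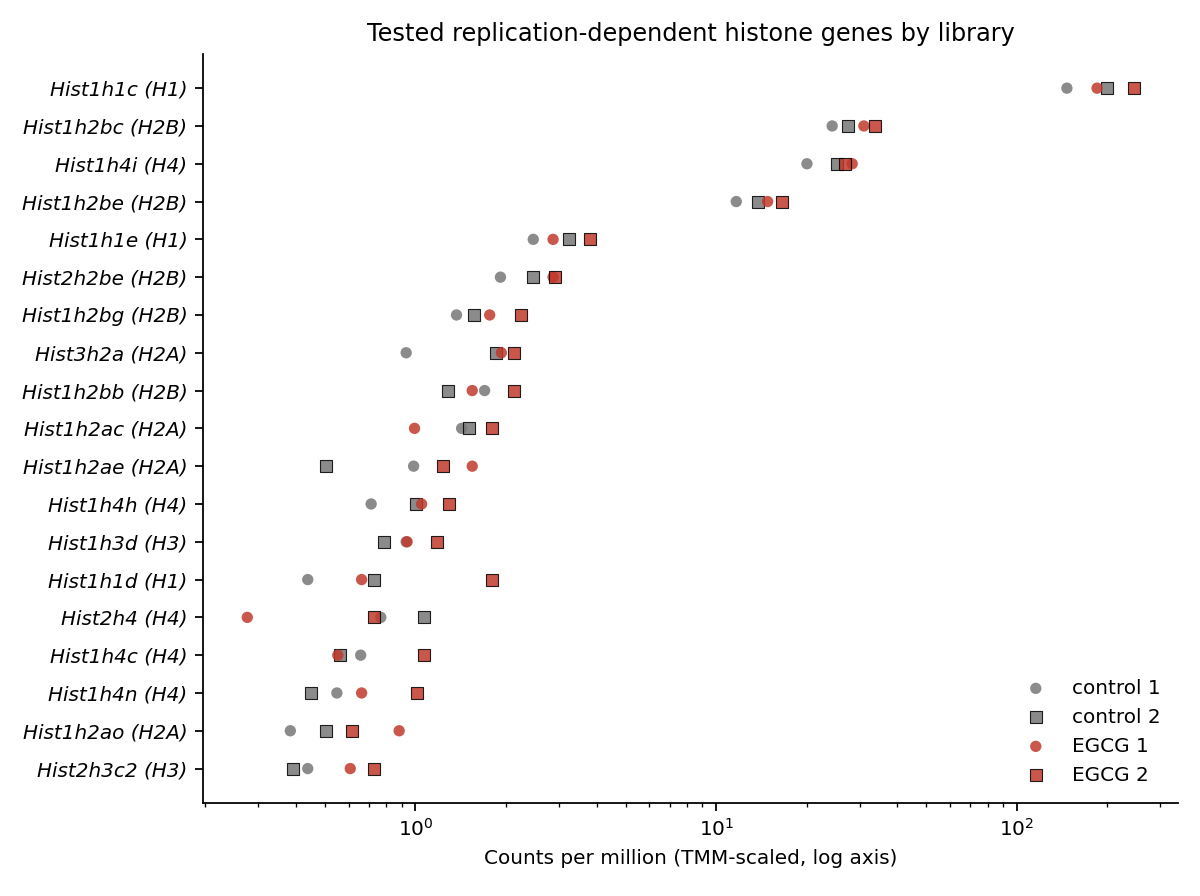
CPM (TMM-scaled, log axis) of the 19 tested histone genes in each library, with control libraries in grey, EGCG libraries in red, circles for replicate 1 and squares for replicate 2. The 4 points of Hist1h1c run from 146.8 to 245.5 CPM, and its groups overlap.

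Among the linker histones, which bind where DNA enters and leaves the nucleosome, Hist1h1c dominated. It was at 146.8 and 199.9 CPM in the control libraries and at 184.9 and 245.5 CPM in the EGCG libraries. EGCG replicate 1 thus lay below control replicate 2, and the means of 173 ± 38 and 215 ± 43 CPM (SD, n = 2) differed by less than the replicates of either group did. The log2 fold change was 0.31 with a standard error of 0.13 (adjusted p = 0.376, edgeR). This result turned on single libraries: without control replicate 2 the log2 fold change was 0.55 (adjusted p = 0.00225, edgeR), without EGCG replicate 1 it was 0.50 (adjusted p = 0.000438), without control replicate 1 it was 0.11 (adjusted p = 0.952), and without EGCG replicate 2 it was 0.09 (adjusted p = 0.857). Hist1h1e was at 2.46 and 3.25 CPM in the control libraries, against 2.87 and 3.81 in the EGCG libraries, again overlapping, and shares 496 bases of exon on the same strand with Hist1h2be, so that the counts of both genes are uncertain. Hist1h1d stood at 0.438, 0.727, 0.662 and 1.79 CPM in the same order, where only EGCG replicate 2 was apart. Its log2 fold change of 1.06 had a standard error of 0.52, and was 0.19 without EGCG replicate 2 and 1.61 without EGCG replicate 1. Hist1h1b, the linker histone of dividing cells, was under the filter with 22 counts in all: 0.110 and 0.168 CPM in the control libraries, against 0.386 and 0.560 in the EGCG libraries. The H1 class summed to 150.0 and 204.4 CPM in the control group and 189.0 and 251.8 CPM in the EGCG treatment group.

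The H2B genes, whose product pairs with H2A in the nucleosome core, gave 17.6% of the summed CPM of the 67 genes. Hist1h2bc was at 24.3 and 27.4 CPM in the control libraries and 30.995 and 33.8 CPM in the EGCG libraries, without overlap (means of 25.8 ± 2.2 and 32.4 ± 2.0, SD, n = 2). Its log2 fold change of 0.33 (standard error 0.10) had the smallest p of the 19 tested genes, 0.00709 before and 0.230 after adjustment in edgeR. Hist1h2be stood at 11.7 and 13.8 CPM in the control group and 14.8 and 16.5 CPM in the EGCG treatment group, and its log2 fold change was 0.30 (standard error 0.13), or 0.19 without control replicate 1. Hist2h2be, at chr3:96221119-96223738, was at 1.92 and 2.46 against 2.87 and 2.91 CPM, and Hist1h2bg at 1.37 and 1.57 against 1.76 and 2.24 CPM. In each of these 4 genes both EGCG libraries were the higher (21.5% of all tested genes), and no adjusted p was under 0.05. In the fifth tested H2B gene, Hist1h2bb, the groups overlapped, at 1.70 and 1.29 against 1.54 and 2.13 CPM. In Hist1h2bg, 56.3% of the 31-base words occur in other genes, most often in Hist1h2bc. The 18 H2B genes summed to 42.8 and 48.7 CPM in the control libraries, against 54.0 and 59.2 in the EGCG libraries, and without Hist1h2bc to 18.5 and 21.4 against 22.998 and 25.4.

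The H2A genes gave 2.38% of the summed CPM of the 67 genes, although their median of 0.427 CPM per kb was not below the 0.320 of the H2B genes. Hist3h2a, at chr11:58954685-58956830, was at 0.931 and 1.85 CPM in the control libraries and 1.93 and 2.13 CPM in the EGCG libraries. It shares 708 bases on its strand with Trim17, which had 1 to 6 counts in a library. Hist1h2ac was at 1.42 and 1.51 against 0.993 and 1.79 CPM, so the groups overlapped (log2 fold change -0.08, standard error 0.36). The estimate for Hist1h2ac was 0.29 without EGCG replicate 1 and -0.56 without EGCG replicate 2. Hist1h2ae was at 0.986 and 0.504 against 1.54 and 1.23 CPM (log2 fold change 0.89, standard error 0.42), and Hist1h2ao at 0.383 and 0.504 against 0.882 and 0.616 CPM (0.75, standard error 0.50). Both rested on fewer than 30 counts a library. With 1 library left out, Hist1h2ae ran from 0.49 (without control replicate 2) to 1.46 (without control replicate 1), Hist1h2ao from 0.47 (without EGCG replicate 1) to 0.98 (without EGCG replicate 2), and Hist3h2a, at 0.55 with all libraries, was at 0.14 without control replicate 1 and above 1 without control replicate 2. The 18 H2A genes summed to 5.42 and 6.16 CPM in the control group and 8.16 and 7.84 CPM in the EGCG treatment group. Class sums are described without a test. An exact permutation test of 2 against 2 libraries cannot give a two-sided p under 0.333.

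Histones H3 and H4 form the tetramer at the centre of the nucleosome. Hist1h3d was at 0.931 and 0.783 CPM in the control libraries and 0.938 and 1.18 CPM in the EGCG libraries, where EGCG replicate 1 was barely above control replicate 1. Hist2h3c2 stood at 0.438 and 0.392 against 0.607 and 0.728 CPM, with 64.2% of its words in other genes. Hist1h3f (30 counts in all) and Hist1h3c (28) were not tested, and in both genes the groups overlapped. The 12 H3 genes summed to 2.74 and 2.69 CPM in the control group and 3.36 and 4.65 CPM in the EGCG treatment group.

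Hist1h4i carried the H4 class. It was at 20.04 and 25.2 CPM in the control libraries and 28.3 and 26.9 CPM in the EGCG libraries, a log2 fold change of 0.29 (standard error 0.12, adjusted p = 0.354, edgeR), with control replicate 1 below the other libraries. Leaving out control replicate 1 gave 0.13, and leaving out control replicate 2 gave 0.46. Hist1h4h was at 0.712 and 1.01 against 1.05 and 1.29 CPM. Hist1h4c overlapped between groups, at 0.657 and 0.560 against 0.552 and 1.06 CPM. Hist2h4 went the other way, at 0.767 and 1.06 CPM in the control libraries and 0.276 and 0.728 CPM in the EGCG libraries (log2 fold change -0.86, standard error 0.51, adjusted p = 0.539), which rested on 5 to 19 counts a library. The estimate was -0.32 without EGCG replicate 1 and -1.70 without EGCG replicate 2.

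**Figure D3:**
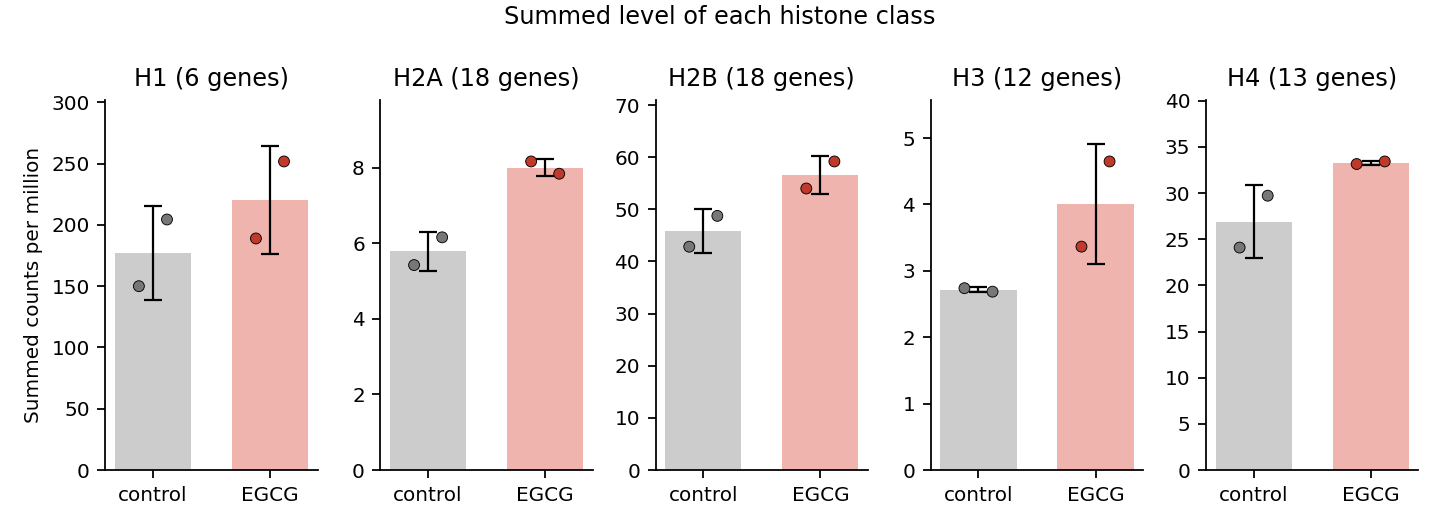
Summed CPM of all genes of each histone class, with bars for the mean of the 2 libraries of a group, error bars for the SD and points for the libraries. The H1 sums overlap between the groups (150.0 and 204.4 against 189.0 and 251.8 CPM), and in the other 4 classes both EGCG libraries are the higher.

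Over all 67 genes, the sum was 225 and 292 CPM in the control libraries and 288 and 357 CPM in the EGCG libraries. The log2 ratio of the means was 0.32, and the SD within groups on the log2 scale was 0.24, and the groups overlapped. Without Hist1h1c the sums were 78.3 and 91.8 against 102.7 and 111.4 CPM (log2 ratio 0.33) and did not overlap. By class, the log2 ratio was 0.31 for H1, 0.47 for H2A, 0.31 for H2B, 0.56 for H3 and 0.31 for H4, beside SDs within groups of 0.30, 0.10, 0.11, 0.23 and 0.15. With 1 library left out, the ratio ran from 0.15 (without control replicate 1) to 0.52 (without control replicate 2) for all genes, from 0.09 to 0.56 for H1, from 0.31 to 0.78 for H3 and from 0.17 to 0.47 for H4. A class sum does not depend on which copy within the class a read was assigned to. Counts of Rn7sk were also higher in both EGCG libraries. So were the summed counts of rRNA genes (5347 and 5806, against 4437 and 3555 for control). Mitochondrial rRNA counts went the same way (66389 and 57615, against 43776 and 51995). The snRNA and snoRNA sums overlapped between groups (420 and 378 against 448 and 402, and 588 and 516 against 583 and 550). The part of RNA selection in the histone ratios was not tested. The pseudogene Hist1h2al, not in these sums, had 396 and 446 counts in the control group and 471 and 500 in the EGCG treatment group, above the 99 to 148 counts of all 18 H2A genes together.

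**Figure D4:**
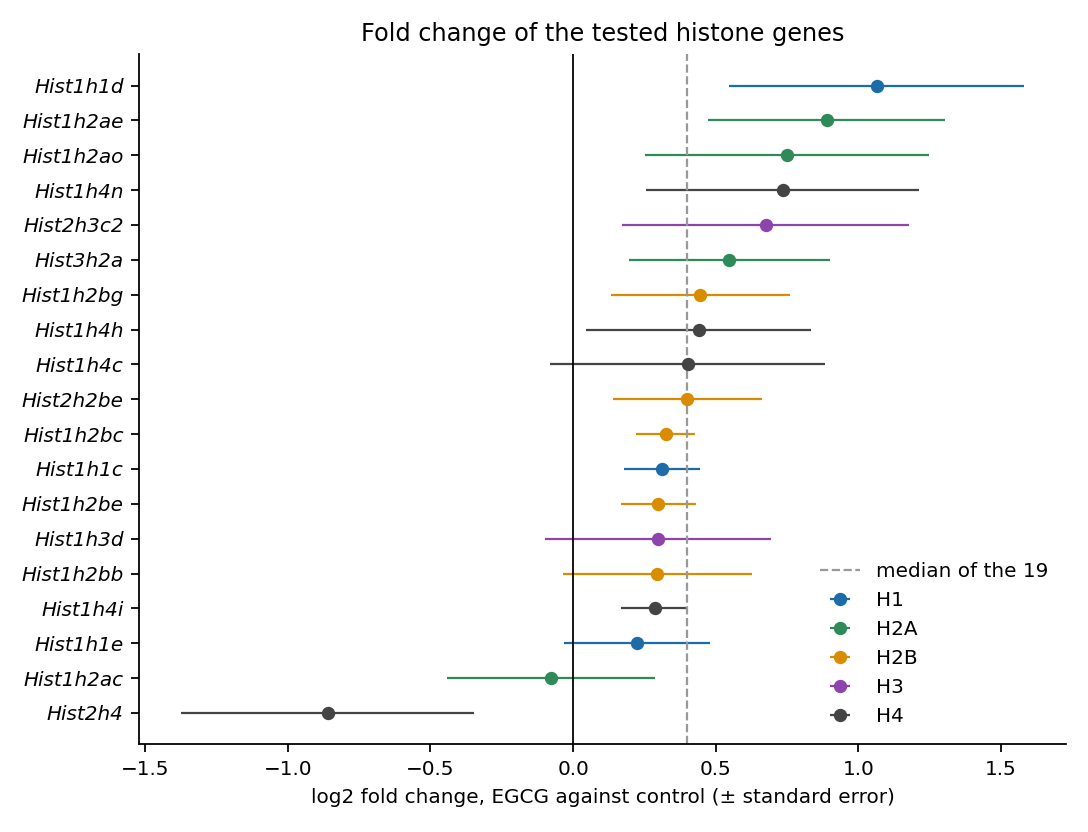
The log2 fold change of EGCG against control (± standard error) for the 19 tested histone genes, colored by class, with a dashed line at their median of 0.40. The median was 0.32 for the 12 with a mean above 1 CPM. These include Hist1h2ae, which was past the filter's cutoff in both EGCG libraries but not in both control libraries. All but Hist1h2ac and Hist2h4 have an estimate above 0, and no adjusted p was under 0.05.

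Many H2A and H2B genes lie head to head and share the DNA between their starts. Such pairs, with starts less than 500 bases apart, were looked for after the levels had been seen, and 12 were found, with 175 to 305 bases between the starts. In 10 pairs both genes had more than 3 counts in all. Per kb, the H2B gene was the higher in 5 pairs and the H2A gene in the other 5. In the pair with the most reads, Hist1h2bc was at 25.2 CPM per kb and Hist1h2ac at 0.576, a ratio of 43.7, across the 250 bases printed above as the Hist1h2ac window. This ratio depends on the models: that of Hist1h2ac has 2482 bases, with 2010 past its stem loop. Without division by length the genes were at 29.1 and 1.43 CPM. In the pair of Hist1h2ae and Hist1h2bg, the H2B gene was 1.85 times the H2A gene (2.81 and 1.51 CPM per kb). The lowest ratios were those of Hist1h2bq to Hist1h2ao (0.072) and Hist1h2br to Hist1h2ap (0.078), where 11 to 43 counts were available for a gene and the H2B models are long. Of the 31-base words of these 4 genes, 89.5% to 98.3% occur in other genes, so that these ratios depend on how reads fitting several genes were counted. Hist1h2bc and Hist1h2ac also differed in their comparison: the former was higher in both EGCG libraries, whereas the latter overlapped, a difference that was not tested.

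**Figure D5:**
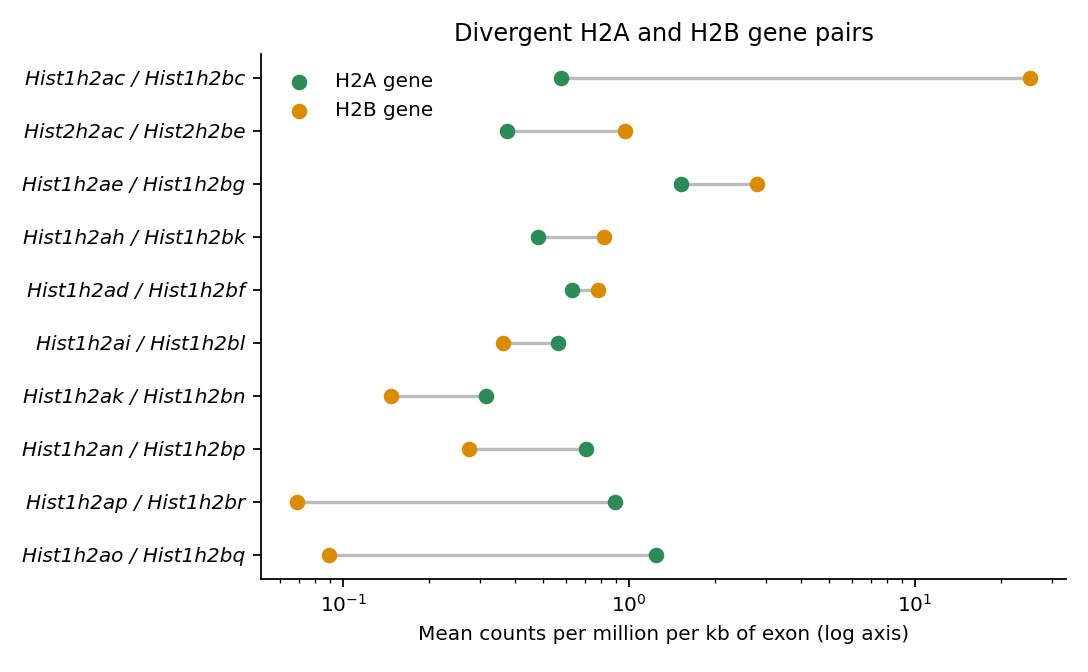
Mean CPM per kb of exon (log axis) of the H2A gene (green) and the H2B gene (orange) in the 10 divergent pairs with more than 3 counts in each gene. The pair of Hist1h2ac and Hist1h2bc is the farthest apart, at 0.576 and 25.2 CPM per kb.

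Genes around the histone pathway were described from lists. Of 18 genes for transcription and 3′ end processing of histone mRNA, 17 were tested, and 0 passed the adjusted threshold in edgeR (at an unadjusted p under 0.05, 0 higher and 1 lower). The eighteenth, Sympk (symplekin), had been entered in the list under a misspelled symbol and is not in these counts; its log2 fold change was -0.09 (adjusted p = 0.690, edgeR). For this list and those that follow, the shares over all tested genes were 0.15% past the adjusted threshold and, at an unadjusted p under 0.05, 5.22% higher and 7.02% lower. Slbp, the stem-loop binding protein, was at 47.8 and 49.8 CPM in the control libraries, against 50.5 and 54.0 in the EGCG libraries (log2 fold change 0.10, standard error 0.09). Lsm10 and Lsm11, subunits of the U7 particle, had log2 fold changes of 0.11 and -0.04. Npat and Casp8ap2, which act at the histone locus body, had -0.10 and -0.02, and Zfp473, the zinc finger protein that works with Slbp, 0.48 with a standard error of 0.32. The list's median was 0.02. Of 16 histone chaperones, which carry new histones to DNA, 0 passed (0 higher and 2 lower at an unadjusted p under 0.05). Asf1b had a log2 fold change of 0.03, Chaf1b of -0.04 and Nasp of 0.06. The 2 at an unadjusted p under 0.05 were Atrx (-0.30, adjusted p = 0.181, edgeR) and Chaf1a (-0.30, adjusted p = 0.397), with 21757 and 8854 bases of exon.

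The list of variant histones holds genes whose products can enter chromatin apart from DNA replication. Its 12 genes had a median of 28.9 CPM per kb, with 10 above 10 CPM per kb and 2 (H2afy2 and H1fx) below the median of the 67 histone genes, whereas Hist1h1c was near the level of H3f3a. H3f3a and H3f3b, both encoding H3.3, were at 123.0 and 237.3 CPM per kb. H3f3a stood at 381 and 417 CPM in the control libraries and 474 and 453 CPM in the EGCG libraries, and H3f3b at 616 and 732 against 669 and 808, with overlap. H2afz, encoding H2A.Z, was at 48.0 and 48.9 against 59.5 and 55.4 CPM, and H2afx at 56.7 and 55.1 against 62.3 and 70.7 CPM. H2afv, named after its values had been seen as the variant with the smallest p, was at 39.4 and 38.6 against 52.5 and 52.6 CPM (log2 fold change 0.43, adjusted p = 0.0717, edgeR). The linker variant H1f0 overlapped, at 34.9 and 41.7 against 36.0 and 45.2 CPM. Of 11 tested variants, 0 passed the adjusted threshold (6 were higher at an unadjusted p under 0.05 and 0 lower), all 11 had an estimate above 0 (50.6% of all tested genes), and their median log2 fold change was 0.20. The list's median exonic length was 2055 bases, and with the length correction the log2 fold change was 0.23 for H2afz, 0.22 for H2afx, 0.23 for H3f3a and 0.13 for H3f3b.

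Of the 36 genes of the DNA synthesis list, 1 passed the threshold, and it was not an enzyme of replication. Mki67, a chromosome coat protein used as a marker of cycling cells, was at 293 and 279 CPM in the control libraries and fell to 209 and 201 CPM in the EGCG libraries (log2 fold change -0.48, standard error 0.07, adjusted p = 0.0245, edgeR). With the length correction the log2 fold change of Mki67, which has 10061 bases of exon, was -0.36 and the adjusted p 0.0864, and without a filter on low counts they were -0.48 and 0.525. Top2a, the topoisomerase that untangles replicated DNA, was at 136 and 155 against 126 and 126 CPM (adjusted p = 0.318). Pcna had a log2 fold change of 0.10, Mcm2, a subunit of the replicative helicase, of 0.01, and Rrm2, of ribonucleotide reductase, of -0.01. The median of the list was 0.0023, with 18 genes higher and 18 lower. The list of 13 genes of the G1/S step held cyclins, kinases, E2F genes, the kinase inhibitors Cdkn1a and Cdkn1b, and the phosphatase Cdc25a. Of these, 0 passed. At an unadjusted p under 0.05 (edgeR), 1 was higher, the inhibitor Cdkn1b (log2 fold change 0.17), and 1 was lower, E2f7 (-0.47). Ccne2 and Ccna2, the cyclins that drive entry into and passage through S phase, both had 0.05.

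The labelled cell type was checked with marker lists. The 10 neutrophil markers, all detected, summed to 52622 and 63504 CPM in the control libraries, against 71549 and 63430 in the EGCG libraries, and the 6 monocyte and macrophage markers to 1181 to 1283 CPM. Markers of other cells were present at lower sums: 6 of B and plasma cells at 496 to 595 CPM, 8 erythroid at 206 to 247, 6 of T and NK cells at 92.5 to 105, 4 of megakaryocytes at 32.0 to 39.3 and 3 of progenitors at 19.1 to 20.8. No marker was at 0 in all libraries. Both EGCG sums were above both control sums, as in the histone classes other than H1, for the B and plasma cell list (595 and 534 against 496 and 531 CPM) and the T and NK cell list (104 and 105 against 92.5 and 102 CPM). The latter sum is mostly Cd3d (75.2 and 86.0 against 87.7 and 90.2 CPM), and 3 of the 5 tested genes of that list had an estimate below 0. Both were below for the monocyte and macrophage list (1181 and 1199 against 1270 and 1283 CPM) and the megakaryocyte list (32.4 and 32.0 against 36.3 and 39.3 CPM). No marker passed the adjusted threshold. The part of other cells in the histone levels was not tested.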

How the data were processed

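The authors aligned RNA-seq reads to GRCm38 with STAR 2.6.0c and counted them per gene with featureCounts 1.6.2 without strand, per the submitters' processing notes and the name of the table. They deposited whole-number counts for 4 libraries (2 control, 2 EGCG), not normalized. How reads that fit several genes were counted is not given in the sources used here. The table held 0 columns of other samples and 0 lines without a gene name. The deposited counts were filtered with filterByExpr (minimum count of 10) and scaled by TMM, which defines the CPM given here. The quasi-likelihood test of edgeR 4.0.16 (legacy form, no block) compared EGCG with control, with Benjamini-Hochberg adjustment over 14682 genes and a threshold of 0.05. The fit was first tested on simulated data. Lengths, coordinates and transcripts came from GENCODE M21 (GRCm38), and promoters from RefSeq. GENCODE M21 held all 67 histone genes and 53360 of the 53465 genes listed. It is thus not identical to the Ensembl release on which the authors counted, and the models used here need not be those counted on.

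The histone genes, gene lists, tests and alternatives were chosen with earlier results of these data known. Genes named in the text are, per class, the 4 with the highest mean CPM, and up to 3 tested genes in each direction with the smallest p. Also named are the testis histones Hist1h1t and Hist1h2ba, named genes of the related lists and every called gene of these lists. The genes without a count, the genes that passed the filter in 1 group only, the divergent pairs and the overlapping genes were named after their values had been seen. So were Hist1h2bb, Sympk, H2afy2, H1fx, Atrx, Chaf1a, Cdkn1a, Cdkn1b, Cdc25a, E2f7 and Cd3d. The alternatives were no filter, a minimum count of 50, scaling by library size only, by DESeq2 size factors or by the upper quartile, DESeq2 1.42.0 as the test, robust estimation, a length correction (loess of log counts on log length per library, span of 0.4), a replicate block, leaving out each library, and leaving out genes with 50% or more shared 31-base words. Other tools were R 4.3.3, Python 3.11.15, pandas 2.3.3 and matplotlib 3.10.9.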

Additional observations from a re-analysis of the deposited data

How the results depend on the processing

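The count of 0 histone genes past the threshold was also obtained in edgeR under each alternative other than leaving out a library, and in DESeq2 for the 4 of 19 genes to which it gave an adjusted p. Leaving out each library in turn gave 0 to 1, the 1 being Hist1h1c without control replicate 2 (log2 fold change 0.55) and without EGCG replicate 1 (0.50), and its estimate ran from 0.09 to 0.55. A lone library is then assumed to vary like the other group. Leaving out a library also changes which genes are tested, 22 to 26 histone genes against 19, of which 18 to 23 had a higher estimate. That count was 45 of 59 without a filter and 6 of 6 with a minimum count of 50. The count over all genes, 22, was 0 without a filter, 10 with a minimum count of 50, 151 with library size only, 11 with upper-quartile scaling, 64 with DESeq2, 63 with robust estimation, 5 with the length correction, and 77 to 354 with a library left out; the cause was not tested. For the tested histone genes, the median log2 fold change ran from 0.30 to 0.41 over the alternatives, 0.31 among them for genes with under 50% shared words, and from 0.27 to 0.51 with a library left out. The log2 ratios of class sums then ran from 0.38 to 0.56 for H2A, 0.31 to 0.78 for H3, 0.17 to 0.47 for H4, 0.22 to 0.40 for H2B, 0.09 to 0.56 for H1 and 0.15 to 0.52 for all; the H2A and H4 values of 0.56 and 0.47 came without control replicate 2 and the H3 value of 0.31 without EGCG replicate 2.

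Over all tested genes, the differences of replicate 1 minus replicate 2 had a correlation of 0.03 between the groups. This value cannot settle whether the libraries were paired, which is not given in the sources used here. In Hist1h1c, replicate 2 was the higher library in both groups. With the replicate block, 0 histone genes and 30 genes in all passed, the median of the tested histone genes was 0.38, and Hist1h1c had a log2 fold change of 0.31 (adjusted p = 0.0916, edgeR). Estimates near 0 changed sign: Asf1b (-0.0084) and Mcm2 (-0.026) with library size only, Rrm2 (0.0019) with upper-quartile scaling, and Lsm11 (0.028) and Casp8ap2 (0.051) with the length correction. With a library left out, sign changes were seen in the ranges of Hist1h2ac (-0.56 to 0.29), Hist1h4c (-0.14 to 0.80), Lsm11 (-0.063 to 0.00037), Casp8ap2 (-0.15 to 0.10), Npat (-0.23 to 0.058), Asf1b (-0.079 to 0.13), Chaf1b (-0.23 to 0.20), H1f0 (-0.090 to 0.24), H3f3b (-0.011 to 0.26), Mcm2 (-0.12 to 0.17), Rrm2 (-0.092 to 0.081), Ccne2 (-0.054 to 0.18) and Ccna2 (-0.050 to 0.15). Slbp (0.051 to 0.15), Nasp (0.0048 to 0.13) and Pcna (0.064 to 0.15) stayed above 0 with a library left out. Mki67 missed the threshold without a filter (adjusted p = 0.525, log2 fold change -0.48) and with the length correction (0.0864). The 48 untested genes had at most 31 counts each in all, and 37 of them have 50% or more of their 31-base words in other genes.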
